A study of Mus musculus with 12 samples.

Results

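The vascular endothelial growth factor (VEGF) system was followed in whole lungs of newborn mice through 9 genes of the count table: the ligands Vegfa, Vegfb, Vegfc and Pgf, the receptors Flt1 (VEGF receptor 1), Kdr (VEGF receptor 2) and Flt4 (VEGF receptor 3), and the coreceptors Nrp1 and Nrp2. The genes were chosen by symbol, and all 9 were found among the 52550 genes of the table. All 9 passed the filter on low counts that left 15885 protein-coding genes for testing. Bulk RNA sequencing had been done on 12 lungs of C57Bl/6J mice on postnatal day 5, with 3 libraries in each of 4 groups. WT mice (Adm+/+) and Adm+/- mice, which keep 1 functional copy of the adrenomedullin gene Adm in all their cells and come from a 129/SvEv line backcrossed to C57BL/6J, received intraperitoneal Escherichia coli O55:B5 lipopolysaccharide (LPS) at 6 mg/kg or an equal volume of PBS. Both agents were given as 3 daily doses from postnatal day 3, and lungs were collected 6 h after the last dose. The WT PBS libraries are replicates 3, 4 and 5, the WT LPS libraries replicates 9, 10 and 11, the Adm+/- PBS libraries replicates 6, 7 and 8, and the Adm+/- LPS libraries replicates 1, 2 and 12, by their library numbers. The labels give neither sex nor litter, and the p-values measure the spread between these libraries. The comparisons ask how LPS exposure moved each gene in either genotype, whether the genotypes differed within a treatment, and whether they differed in their LPS response.

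VEGF ligands are secreted dimers that bind tyrosine kinase receptors on endothelial cells. Vegfa, made in the lung mainly by epithelial cells, acts through Kdr to drive endothelial survival, growth and permeability, while Flt1 binds Vegfa tightly, signals weakly and also exists as a soluble decoy. Pgf and Vegfb bind Flt1, Vegfc binds Flt4 and drives lymphatic growth, and the neuropilins Nrp1 and Nrp2 hold ligands at the receptors and also bind class 3 semaphorins. In the newborn lung this system accompanies the growth of capillaries with the forming alveoli. Counts here are per gene, so membrane and soluble Flt1 transcripts, or the splice forms of Vegfa, are summed.

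On mm10, with Gencode M21 positions, Vegfa (ENSMUSG00000023951) lies at chr17:46016993-46032369 on the minus strand, Vegfb (ENSMUSG00000024962) at chr19:6982473-6987651 (minus), Vegfc (ENSMUSG00000031520) at chr8:54077606-54187096 (plus) and Pgf (ENSMUSG00000004791) at chr12:85166635-85177790 (minus). Flt1 (ENSMUSG00000029648) lies at chr5:147561604-147726011 (minus), Kdr (ENSMUSG00000062960) at chr5:75932827-75978458 (minus) and Flt4 (ENSMUSG00000020357) at chr11:49609263-49652739 (plus). Nrp1 (ENSMUSG00000025810) lies at chr8:128358604-128503363 (plus) and Nrp2 (ENSMUSG00000025969) at chr1:62703285-62818695 (plus). Nrp1 overlaps the microRNA gene Mir1903, which had 0 counts in every library. Nrp2 overlaps Gm29083 on the opposite strand, with 14 to 46 counts per library, and Gm37121 on its own strand, with 41 to 153 counts, against at least 3577 counts for Nrp2. The other 7 genes overlap no annotated gene.

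The promoters of Kdr and Flt1 are shown because these receptors share their ligand Vegfa but moved apart after LPS exposure. Each sequence holds the 250 bases before the RefSeq start site (GRCm38.p6), read 5′ to 3′ on the strand of the gene. Capitals mark matches, on either strand, to the hypoxia response core GCGTG, the GC box GGGCGG and the NF-kappa B consensus.
Kdr promoter, chr5:75978456-75978705, minus strand: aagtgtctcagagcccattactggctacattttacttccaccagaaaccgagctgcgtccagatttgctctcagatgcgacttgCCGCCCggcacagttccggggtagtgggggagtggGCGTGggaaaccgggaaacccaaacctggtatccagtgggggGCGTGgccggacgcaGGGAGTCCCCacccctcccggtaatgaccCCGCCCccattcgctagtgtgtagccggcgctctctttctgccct
Flt1 promoter, chr5:147726012-147726261, minus strand: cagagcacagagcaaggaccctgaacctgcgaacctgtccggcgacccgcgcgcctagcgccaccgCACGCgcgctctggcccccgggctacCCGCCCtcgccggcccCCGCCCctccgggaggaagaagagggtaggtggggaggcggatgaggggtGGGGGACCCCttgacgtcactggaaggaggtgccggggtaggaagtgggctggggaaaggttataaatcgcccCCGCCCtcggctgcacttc
Both windows held 1 match to the NF-kappa B consensus, beginning 74 bases before the Kdr start and 92 bases before the Flt1 start. The Kdr window also held 2 matches to GCGTG and 2 GC boxes, and the Flt1 window 1 match to GCGTG and 3 GC boxes. None of these matches overlapped. Of all 32851 promoter windows of this length, 3.90% held the NF-kappa B consensus, 28.2% GCGTG and 32.7% the GC box. The windows were also searched for ACGTG (in 16.6% of all windows), TGANTCA (6.75%), TTCNNNGAA (7.02%) and CCGGAAG (6.91%), none of which occurred in either. These matches describe the letters and not binding.

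Vegfa was the most abundant of the genes in every library, while the order of the others changed with treatment. Levels are given in CPM, counts of a gene scaled to the library's TMM-normalized total over the tested genes, and between genes only as CPM per kb of annotated exon. By this measure Vegfa averaged 139.6 CPM per kb over the 12 libraries, followed by Kdr at 49.0, Nrp1 at 43.2, Nrp2 at 15.8, Flt1 at 12.5, Flt4 at 11.8, Vegfb at 10.7, Vegfc at 9.09 and Pgf at 5.58 CPM per kb. Vegfa exceeded Kdr in 12 of 12 libraries and Nrp1 exceeded Nrp2 in 12 of 12, in both cases without overlap of the ranges. Kdr and Nrp1 changed places with treatment. Kdr was above Nrp1 in all 6 PBS libraries, at 60.4 to 70.4 against 40.6 to 52.6 CPM per kb without overlap, and below it in all 3 Adm+/- LPS libraries, at 28.7 to 31.2 against 38.9 to 39.9 CPM per kb. In WT LPS their ranges overlapped. Nrp2 was above Flt1 within every library, although the ranges over libraries overlapped. The ranges of the remaining neighbours overlapped, with Flt1 above Flt4 in 9 libraries, Flt4 above Vegfb in 10, Vegfb above Vegfc in 7 and Vegfc above Pgf in 9. The 3 libraries with Pgf above Vegfc were those of Adm+/- LPS, where Pgf averaged 10.2 CPM per kb, Vegfc 8.65 and Vegfb 7.83, and Pgf was above both in each library. Over the 12 libraries the CPM of Pgf spanned 6.78-fold and that of Kdr 2.57-fold, against 1.25-fold for Flt1.

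**Figure D1:**
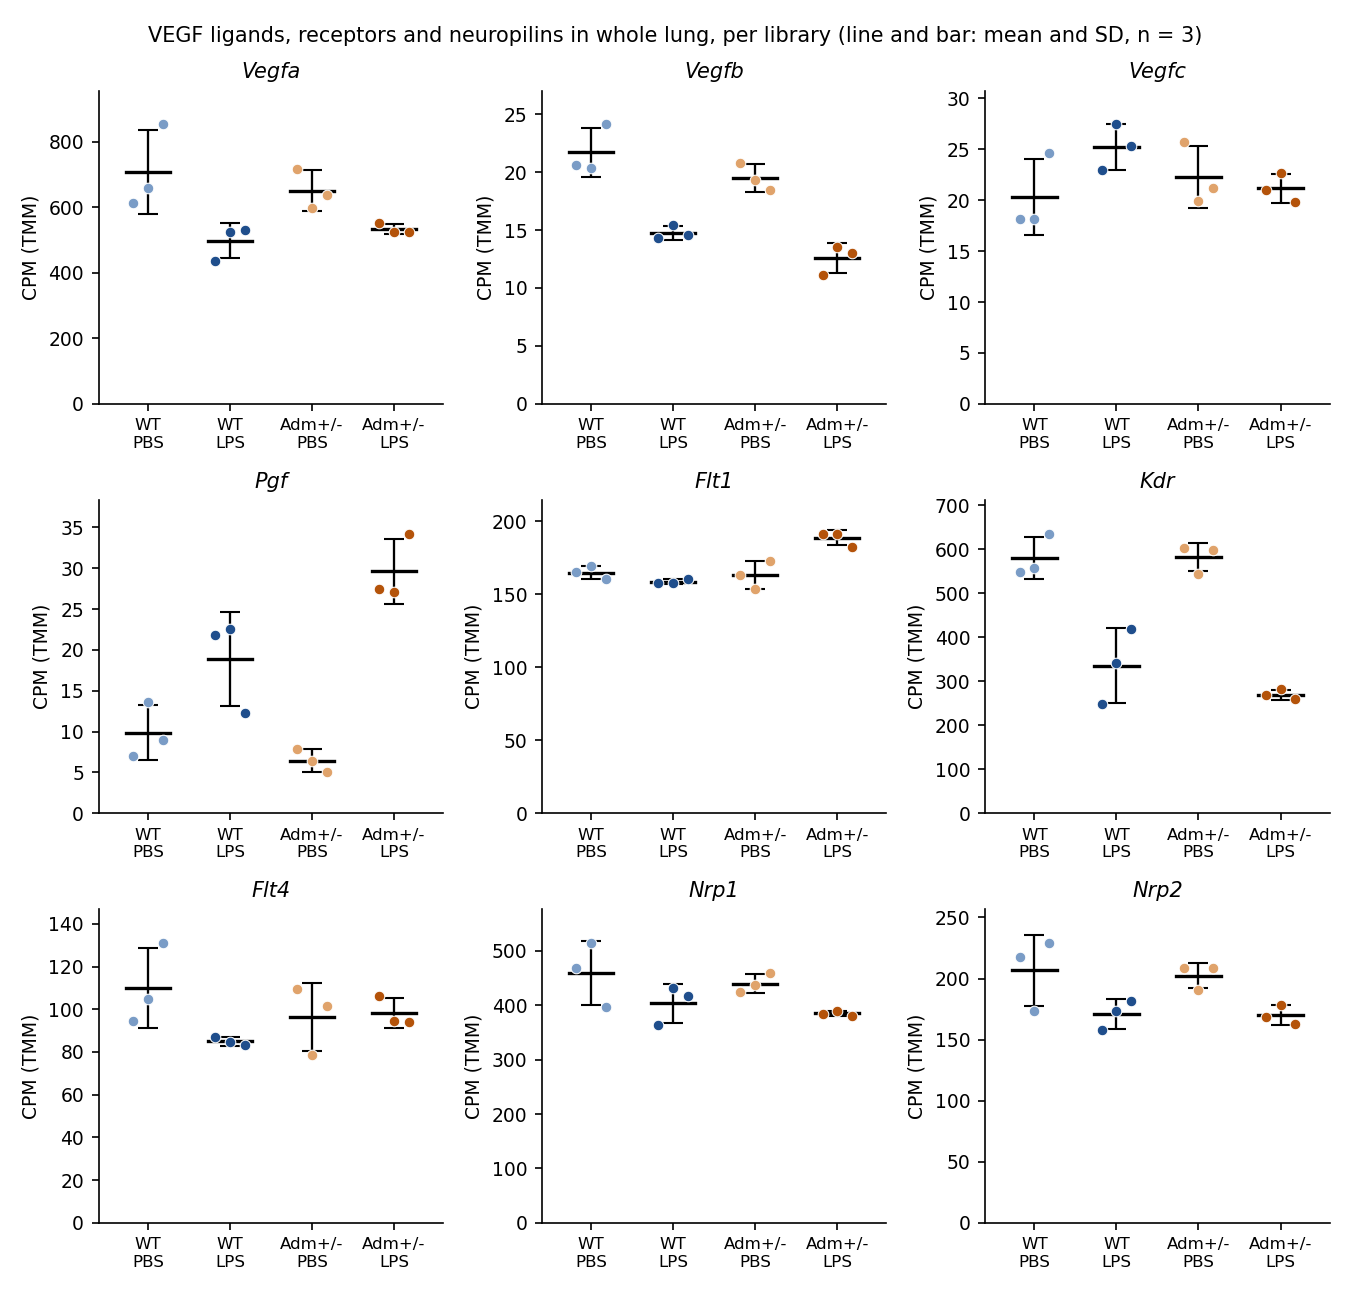
CPM of each of the 9 genes (vertical axes from 0) in the 12 libraries, with the 4 groups on the horizontal axis, a point per library, and a line and bar for the mean and SD of 3 libraries. Kdr was lower in all 6 LPS libraries than in any PBS library, and Pgf was highest in the Adm+/- LPS libraries.

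The libraries differed in ways that touch these genes. Total counts ranged from 22382535 to 38062873, and the 9 genes had between 127 and 17685 counts per library. WT PBS replicate 5 and Adm+/- PBS replicate 6 stood apart, since protein-coding genes took 77.8% and 80.1% of their counts, where the range elsewhere was 84.3% to 87.6%. They also held more counts of the non-coding RNA Gm26917, 16.6% and 13.3% against 5.42% to 7.40% elsewhere. Their fibroblast markers, with the most counts in the collagen gene Col1a1, summed to 44596 and 28822 CPM, against 11134 to 16832 CPM elsewhere. The markers of the lung were in place: the 24 endothelial markers summed to between 5417 and 6571 CPM in every library, and the type II pneumocyte list, with the most counts in surfactant protein C (Sftpc), to at least 14604 CPM. The targeted gene Adm had 3.96, 7.09 and 4.57 CPM in WT PBS, 7.77, 8.15 and 4.46 in WT LPS, 4.58, 2.87 and 3.62 in Adm+/- PBS and 3.74, 6.28 and 3.92 in Adm+/- LPS. Adm+/- minus WT, its log2 difference came to -0.50 in PBS (SE 0.32, edgeR adjusted p = 0.999) and -0.55 in LPS (SE 0.31, edgeR adjusted p = 0.480), and the libraries of the genotypes overlapped in both treatments. The study's methods state that genotypes were checked by genotyping and by RT-PCR of lung Adm, which were not analysed here. Adm overlaps Gm28863 on the opposite strand, which had 0 to 13 counts.

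Among the ligands, LPS exposure lowered Vegfb in both genotypes and Vegfa in WT mice, raised Pgf in both, and left Vegfc below the threshold. Calls needed an absolute log2 fold change above 0.5 together with a p under 0.05 after Benjamini-Hochberg adjustment over all tested genes. In WT mice 4 of the 9 genes were called (Vegfa, Vegfb and Kdr lower, Pgf higher), against a background of 17.6% of all tested genes, of which 10.5% of tested genes were higher and 7.09% lower. In Adm+/- mice 3 of the 9 were called (Vegfb and Kdr lower, Pgf higher), against a background of 25.0%, with 12.8% of tested genes higher and 12.2% lower. The LPS and PBS libraries did not overlap for 4 of the 9 genes in WT mice (36.2% of all tested genes) and for 7 of the 9 in Adm+/- mice (53.7% of all tested genes). The WT calls leaned on WT PBS replicate 5: without it, and also without both libraries that stood apart, only the call of Kdr was left among the 9.

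Vegfa, the main ligand of Kdr, had 613, 659.8 and 854 CPM in the WT PBS libraries and 437, 525 and 532 CPM in the WT LPS libraries. Adm+/- lungs had 718, 598 and 638 CPM after PBS and 552, 525 and 525 CPM after LPS. In both genotypes every LPS library was below every PBS library. The log2 fold change was -0.51 in WT mice (SE 0.13, 95% confidence interval -0.80 to -0.22, edgeR adjusted p = 0.0202) and -0.29 in Adm+/- mice (SE 0.13, edgeR adjusted p = 0.124). WT PBS replicate 5 held the highest Vegfa level of the series. Without it the WT value was -0.36 (edgeR adjusted p = 0.0437), under the fold threshold, and without WT LPS replicate 9 it was -0.42 (edgeR adjusted p = 0.0954). The genotypes' LPS responses differed by 0.22 (SE 0.19, edgeR adjusted p = 0.933).

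Vegfb, a ligand of Flt1 linked to fatty acid uptake by endothelium, had 20.6, 20.4 and 24.2 CPM in WT PBS and 14.3, 15.4 and 14.5 CPM in WT LPS. Adm+/- lungs had 20.8, 19.3 and 18.4 CPM after PBS and 11.1, 13.6 and 13.0 CPM after LPS. LPS and PBS libraries were separate in both genotypes. Its log2 fold change was -0.56 in WT mice (SE 0.12, edgeR adjusted p = 0.00849) and -0.63 in Adm+/- mice (SE 0.12, edgeR adjusted p = 0.00250). Without WT PBS replicate 5 the WT value fell under the fold threshold (-0.47, edgeR adjusted p = 0.0195).

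Pgf, placental growth factor, which binds Flt1 and not Kdr, rose the most of the 9 genes. It had 6.99, 13.6 and 9.02 CPM in WT PBS and 21.9, 22.5 and 12.3 CPM in WT LPS. It had 7.84, 6.35 and 5.05 CPM in Adm+/- PBS and 27.4, 27.1 and 34.2 CPM in Adm+/- LPS. The WT groups overlapped, since WT LPS replicate 11 lay below WT PBS replicate 4, while the Adm+/- groups were far apart. WT PBS replicate 4 also had a neutrophil marker sum of 197 CPM, against 44.1 to 73.6 CPM in the other PBS libraries. The part of this in the Pgf values was not tested. The log2 fold change was 0.94 in WT mice (SE 0.28, 95% confidence interval 0.32 to 1.55, edgeR adjusted p = 0.0360) and 2.21 in Adm+/- mice (SE 0.29, 95% confidence interval 1.57 to 2.85, edgeR adjusted p = 0.000284). The WT call was lost when any of 7 single libraries was left out (replicates 3 and 5 of WT PBS, 9 and 10 of WT LPS, 7 of Adm+/- PBS, and 1 and 2 of Adm+/- LPS), with values from 0.73 to 1.24 over all 12 such fits. The Adm+/- value stayed between 2.06 and 2.38 over the 12 fits and was called in each.

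Vegfc, the lymphatic ligand, had 18.1, 18.2 and 24.6 CPM in WT PBS and 22.9, 27.5 and 25.4 CPM in WT LPS. Adm+/- lungs had 25.7, 19.97 and 21.2 CPM after PBS and 21.1, 22.7 and 19.8 CPM after LPS. The groups overlapped in both genotypes, with log2 fold changes of 0.32 in WT mice (SE 0.15, edgeR adjusted p = 0.149) and -0.07 in Adm+/- mice (SE 0.15, edgeR adjusted p = 0.750). In WT mice the overlap came from PBS replicate 5 alone. Without it the WT value was 0.48 (edgeR adjusted p = 0.0304), under the fold threshold, and without both libraries that stood apart 0.48 (edgeR adjusted p = 0.0145).

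Among the receptors, Kdr fell after LPS exposure in both genotypes, whereas Flt1 and Flt4 were not called in either. Kdr, the main signalling receptor for Vegfa, had 549, 558 and 636 CPM in WT PBS and 247, 342 and 418 CPM in WT LPS. It had 602, 545 and 598 CPM in Adm+/- PBS and 269, 282 and 259 CPM in Adm+/- LPS. The highest LPS library was below the lowest PBS library in both genotypes, and the WT LPS libraries were spread more widely (SD 85.6 CPM) than the Adm+/- LPS libraries (SD 11.4 CPM). The log2 fold change was -0.79 in WT mice (SE 0.16, 95% confidence interval -1.13 to -0.45, edgeR adjusted p = 0.00542) and -1.11 in Adm+/- mice (SE 0.16, 95% confidence interval -1.45 to -0.76, edgeR adjusted p = 0.000429). In a fit of only the 6 WT libraries the WT value was -0.79 with edgeR adjusted p = 0.0568, and 0 of the 9 genes were called in that fit. In whole lung, fewer cells of a type and less RNA per cell cannot be told apart.

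Flt1, the high-affinity receptor for Vegfa, Vegfb and Pgf, had 165, 169 and 160.1 CPM in WT PBS and 157, 157 and 161 CPM in WT LPS, ranges that overlapped. It had 163, 154 and 173 CPM in Adm+/- PBS and 191, 191 and 183 CPM in Adm+/- LPS, with all LPS libraries above the PBS libraries. The log2 fold change was -0.06 in WT mice (SE 0.08, edgeR adjusted p = 0.625) and 0.21 in Adm+/- mice (SE 0.08, 95% confidence interval 0.04 to 0.38, edgeR adjusted p = 0.0621). Flt4, the receptor for Vegfc, had 94.7, 105 and 131 CPM in WT PBS and 87.0, 84.7 and 83.1 CPM in WT LPS, without overlap. It had 109.6, 78.8 and 101 CPM in Adm+/- PBS and 106, 94.6 and 94.1 CPM in Adm+/- LPS, with overlap. Its log2 fold change was -0.37 in WT mice (SE 0.14, edgeR adjusted p = 0.0786) and 0.03 in Adm+/- mice (SE 0.14, edgeR adjusted p = 0.908). WT PBS replicate 5 had the highest Flt4 level. Without it the WT value was -0.23 (edgeR adjusted p = 0.221), and without both libraries that stood apart -0.23 (edgeR adjusted p = 0.155).

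Neither neuropilin was called. Nrp1, coreceptor of Kdr, had 468, 515 and 397 CPM in WT PBS, 363, 432 and 417 CPM in WT LPS, 424, 437 and 459.7 CPM in Adm+/- PBS and 384, 390.3 and 381 CPM in Adm+/- LPS. Nrp2, coreceptor of Flt4, had 217, 174 and 229 CPM in WT PBS, 158, 174 and 182 CPM in WT LPS, 208, 190.3 and 209 CPM in Adm+/- PBS and 169, 179 and 163 CPM in Adm+/- LPS. For both genes the LPS libraries were below the PBS libraries without overlap in Adm+/- mice and overlapped them in WT mice. The log2 fold change of Nrp1 was -0.19 in WT mice (edgeR adjusted p = 0.228) and -0.19 in Adm+/- mice (edgeR adjusted p = 0.196). For Nrp1 the WT value was -0.28 without both libraries that stood apart (edgeR adjusted p = 0.0446, under the fold threshold) and -0.28 without WT PBS replicate 5 (edgeR adjusted p = 0.0566), -0.098 without WT PBS replicate 4 and -0.12 without WT LPS replicate 9. The value of Nrp2 was -0.27 in WT mice (edgeR adjusted p = 0.0995) and -0.25 in Adm+/- mice (edgeR adjusted p = 0.109).

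**Figure D2:**
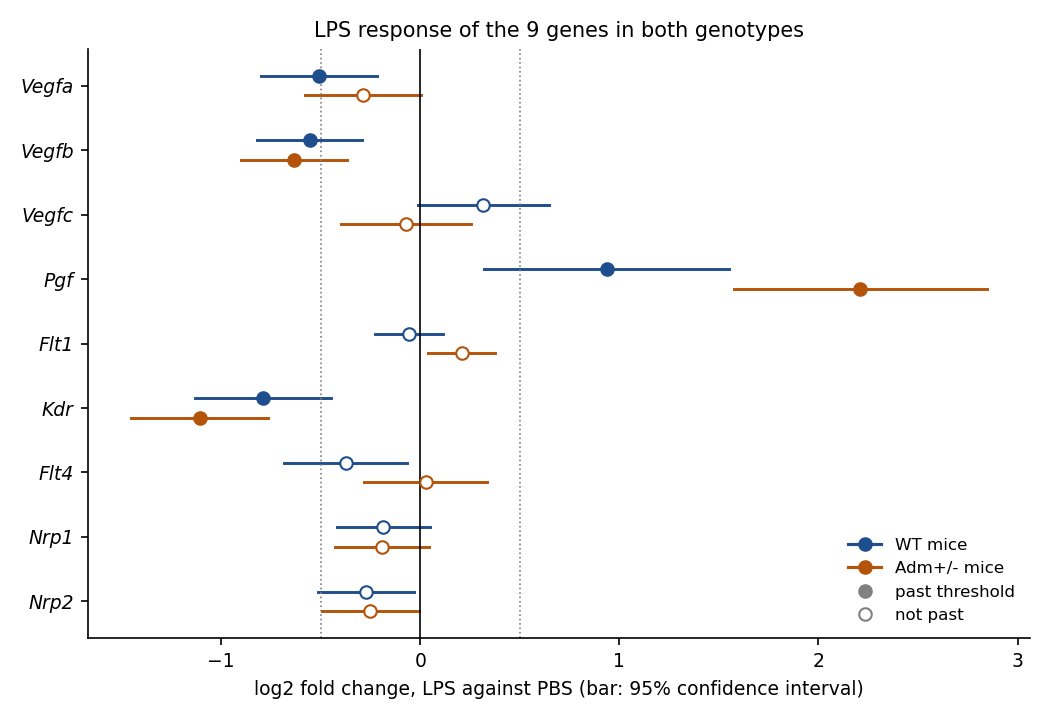
Log2 fold change of LPS against PBS (horizontal axis) for the 9 genes (vertical axis) in WT and Adm+/- mice, with 95% confidence intervals from the edgeR fit; filled points passed the threshold and dotted lines mark log2 fold changes of -0.5 and 0.5. The Kdr values were -0.79 and -1.11 and the Pgf values 0.94 and 2.21 in WT and Adm+/- mice.

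The makeup of the receptor mRNA shifted with Kdr. Per kb of exon, Kdr held 71.6% ± 0.483 (SD, n = 3) of the summed level of the 3 receptors in WT PBS and 62.1% ± 6.38 in WT LPS. It held 73.1% ± 1.02 in Adm+/- PBS and 53.6% ± 1.26 in Adm+/- LPS, and the treatment groups did not overlap in either genotype. The share of Flt1 was 13.6% and 20.1% in WT PBS and LPS, and 13.7% and 25.0% in Adm+/- PBS and LPS. Among these 4 ligands, which leave out the further ligand Vegfd, Vegfa held most of the level in every group, with 86.7% ± 0.798 in WT PBS, 81.6% ± 2.16 in WT LPS, 86.6% ± 0.519 in Adm+/- PBS and 82.4% ± 1.23 in Adm+/- LPS (SD, n = 3). The share of Pgf was 1.82% and 4.63% in WT PBS and LPS, and 1.25% and 6.74% in Adm+/- PBS and LPS.

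**Figure D3:**
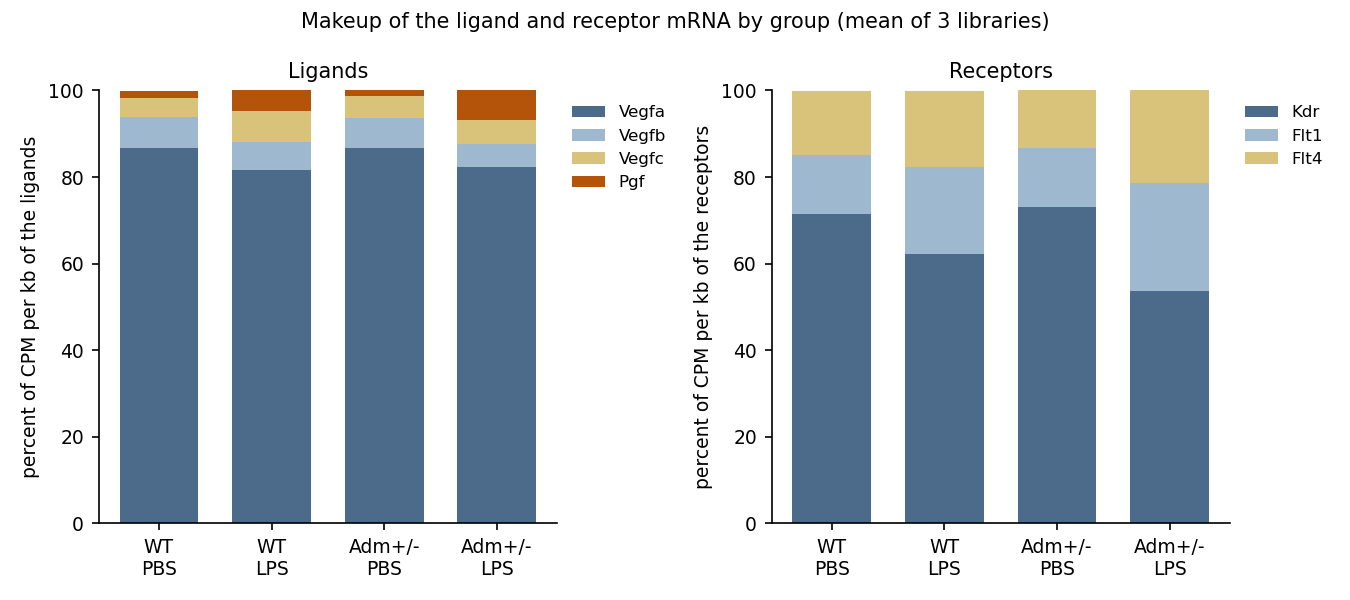
Mean percent of the summed CPM per kb (vertical axis) held by each of the 4 ligands and of the 3 receptors, for each of the 4 groups (horizontal axis, 3 libraries each). The Kdr share was 71.6% and 73.1% in the PBS groups and 62.1% and 53.6% in the LPS groups.

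Ratios of paired genes within a library do not depend on its scaling, and were tested by two-sided exact permutation over libraries. For the LPS effect the exact permutation ran over treatment labels within genotype, and for the difference in LPS response over genotype labels within treatment (400 assignments each, smallest possible p = 0.005), with adjustment over the 3 ratios and 2 tests. The ratio of Flt1 to Kdr counts was 0.300, 0.303 and 0.252 in WT PBS and 0.271, 0.282 and 0.289 in Adm+/- PBS. It was 0.636, 0.460 and 0.384 in WT LPS and 0.712, 0.680 and 0.705 in Adm+/- LPS, so that every LPS library was above every PBS library. The mean LPS effect was 1.04 on the log2 scale (higher in 6 of 6 LPS libraries, exact permutation p = 0.005, adjusted p = 0.01). The response was 0.55 larger in Adm+/- than in WT mice, which did not pass (exact permutation p = 0.09, adjusted p = 0.135). Without WT PBS replicate 5 that difference was 0.64 and passed (adjusted p = 0.015 by the exact permutation test).

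The ratio of Vegfc to Vegfa counts, the lymphatic against the blood vessel ligand, was 0.0275 to 0.0296 in WT PBS and 0.0477 to 0.0525 in WT LPS. It was 0.0332 to 0.0358 in Adm+/- PBS and 0.0377 to 0.0432 in Adm+/- LPS. The 4 groups did not overlap, and the Adm+/- groups lay between the WT groups. The ratio rose with LPS exposure by 0.52 on the log2 scale (exact permutation p = 0.005, adjusted p = 0.01), and by 0.61 less in Adm+/- than in WT mice (exact permutation p = 0.005, adjusted p = 0.01). Over the 12 fits that leave out 1 library, the difference ranged from -0.67 to -0.58 and passed in each. The ratio of Nrp2 to Nrp1 counts ran from 0.337 to 0.577 in WT PBS, and the other 9 libraries lay between 0.403 and 0.491. Its LPS effect of -0.07 (exact permutation p = 0.575, adjusted p = 0.69) and the genotypes' difference of 0.02 (exact permutation p = 0.915, adjusted p = 0.915) did not pass.

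**Figure D4:**
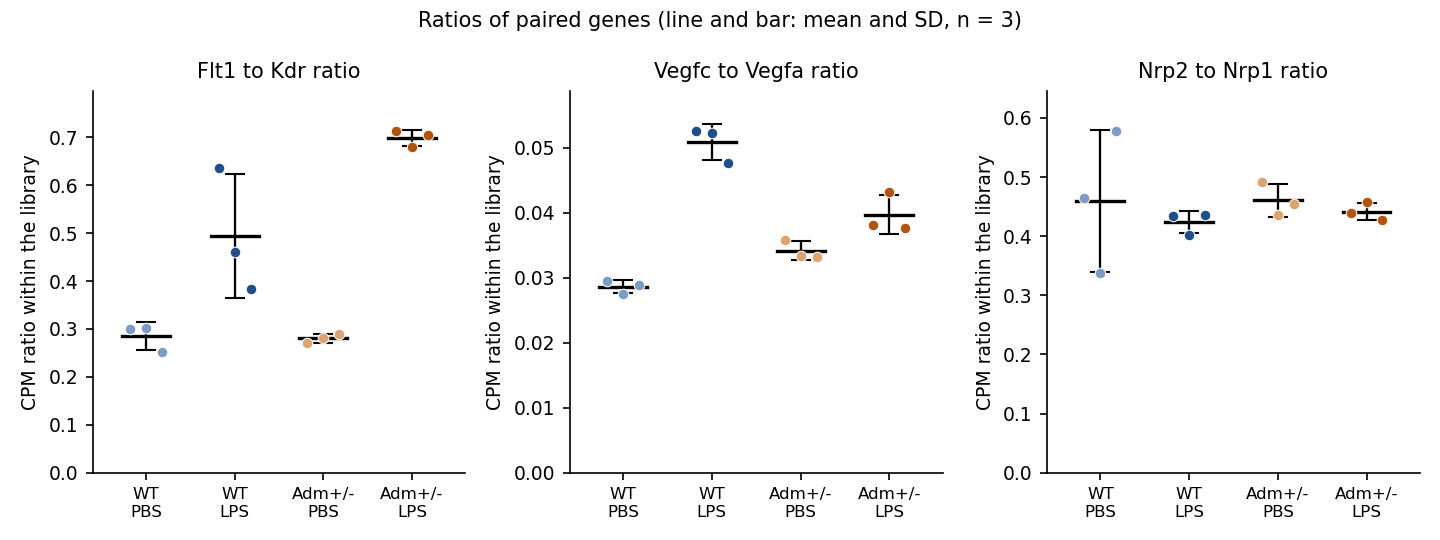
Ratios of the CPM of paired genes within each library (vertical axes from 0) by group (horizontal axes), with a point per library, and a line and bar for the mean and SD of 3 libraries. The Flt1 to Kdr ratio lay at or under 0.303 in the PBS libraries and at or over 0.384 in the LPS libraries.

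Receptor levels were also set against the mean log2 CPM of 24 endothelial markers in the same library, as a description without a test. Relative to this list Kdr averaged 1.76 in WT PBS, 1.07 in WT LPS, 1.71 in Adm+/- PBS and 0.68 in Adm+/- LPS, on the log2 scale. The Kdr libraries did not overlap between treatments in either genotype, with WT LPS from 0.65 to 1.45 and Adm+/- LPS from 0.58 to 0.79, against at least 1.65 in every PBS library. Flt1 relative to the list was -0.06 in WT PBS, 0.02 in WT LPS, -0.12 in Adm+/- PBS and 0.16 in Adm+/- LPS, with every LPS library above every PBS library. Flt4 was at -0.65, -0.88, -0.89 and -0.78, Nrp1 at 1.41, 1.37, 1.31 and 1.19, and Nrp2 at 0.26, 0.13, 0.19 and 0.01 in the same order of groups. These values depend on the use of the list's mean. Set against its median, the LPS difference was 0.24 in WT and 0.49 in Adm+/- mice for Flt1 (0.081 and 0.28 with the mean) and -0.064 and 0.32 for Flt4 (-0.22 and 0.11 with the mean), and it turned positive for Nrp1 (0.11 in WT and 0.090 in Adm+/- mice) and for Nrp2 (0.032 in both).

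**Figure D5:**
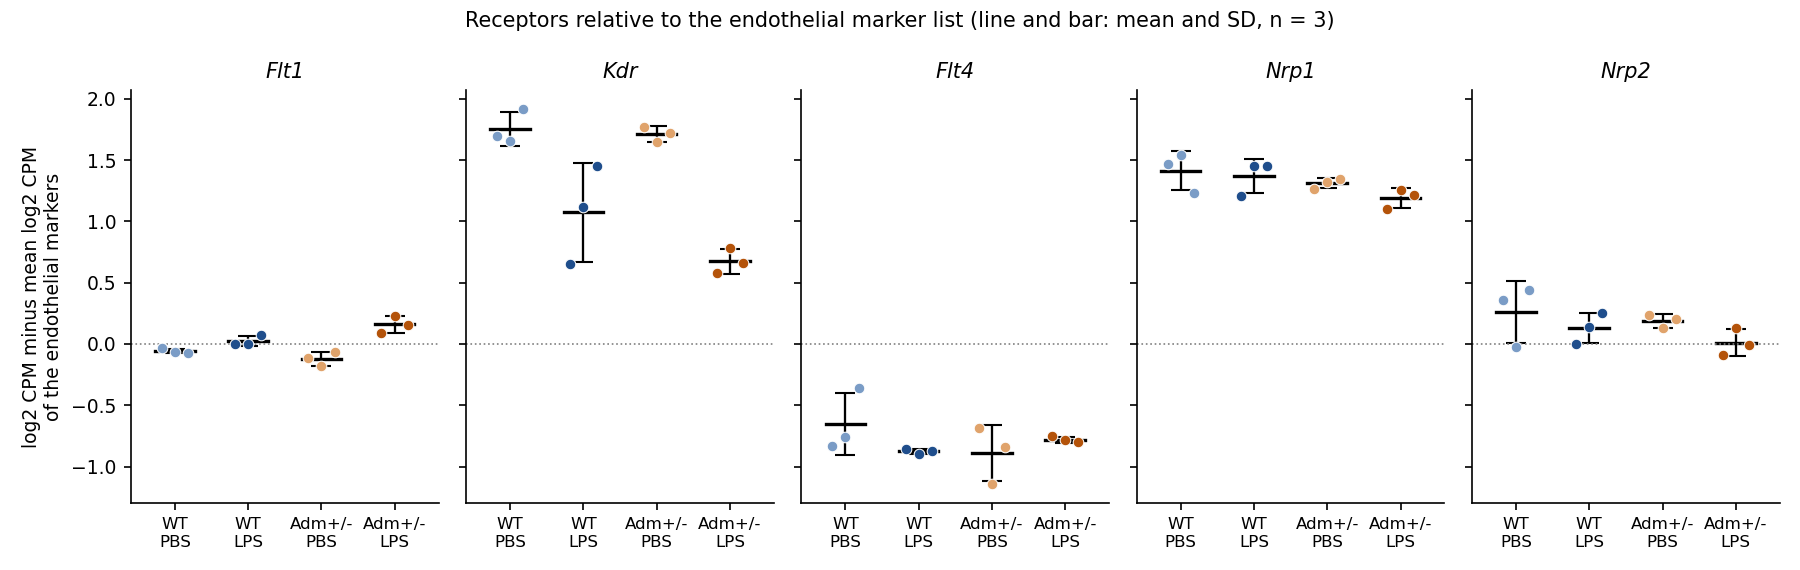
Log2 CPM of each receptor and neuropilin minus the mean log2 CPM of the 24 endothelial markers (vertical axis) in the 12 libraries by group (horizontal axes), with mean and SD of 3 libraries. Kdr lay at or over 1.65 in the PBS libraries and at or under 1.45 in the LPS libraries, and Flt1 lay between -0.18 and -0.035 in the PBS libraries and between -0.0017 and 0.23 in the LPS libraries.

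Few of the endothelial markers were called. In WT mice 18 of the 24 had a negative log2 fold change, 3 of them called, and 1 rose, with a median of -0.20 against 0.0091 over all tested genes. Their sum was 5417 to 5675 CPM in the WT LPS libraries and 6037 to 6571 CPM in the WT PBS libraries, without overlap. In Adm+/- mice 2 rose and 4 fell, with a median of 0.015 against -0.013 over all tested genes, and the sums of 5971 to 6542 CPM after LPS overlapped those of 6138 to 6384 CPM after PBS. The share of the list that was called, 16.7% in WT and 25.0% in Adm+/- mice, was near that of all tested genes, 17.6% and 25.0%. In this and the following lists, the gene with the highest mean CPM, not scaled for length, is given as the one with the most counts. Cdh5, a junction protein with the most counts of the endothelial list, had log2 fold changes of -0.15 and 0.09 and was not called. The sphingosine receptor S1pr1 rose by 0.80 in WT mice and 1.53 in Adm+/- mice, and Robo4 by 0.68 in Adm+/- mice. The transcription factor Sox17 had values of -0.83 and -1.34, both called, the receptor Tie1 -0.77 in WT mice and Clec14a -0.82 in Adm+/- mice. Of 8 aerocyte capillary markers, with the most counts in Emp2, none was called in WT mice and 1 fell in Adm+/- mice (Chst1, -0.96). Their sums were lower after LPS without overlap in WT mice, at 1716 to 1948 against 1985 to 2825 CPM. The same held in Adm+/- mice, at 1884 to 1896 against 1955 to 2438 CPM. The median log2 fold changes of these markers were -0.19 in WT and 0.016 in Adm+/- mice. Of 8 general capillary markers, with the most counts in Cd93, 1 fell in WT mice (Cxcl12, -0.68), and in Adm+/- mice 1 rose (Gpihbp1, 0.59) and 1 fell (Cxcl12, -0.70). The general capillary sums were 2346 to 2443 CPM in WT LPS and 2455 to 2809 CPM in WT PBS, without overlap. In Adm+/- mice these sums overlapped, at 2478 to 2832 CPM after LPS and 2663 to 2979 CPM after PBS. Of 7 lymphatic markers, among them Pdpn, which type I pneumocytes express as well, 4 rose in WT and 3 in Adm+/- mice and none fell. Lyve1, with the most counts of them, rose by 1.22 and 1.64 and Reln by 1.02 and 0.94.

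A list of 10 tested genes held Vegfd beside binding partners, proteases and other proteins, not all of which bind VEGF. Of these genes, 3 rose and 1 fell in each genotype (4 of 10 called, against 17.6% and 25.0% of all tested genes in WT and Adm+/- mice). The gene that fell was Vegfd, a further ligand of the family, from 61.5 to 31.9 CPM in WT mice (log2 fold change -0.95, SE 0.20, edgeR adjusted p = 0.00690) and from 73.1 to 28.8 CPM in Adm+/- mice (-1.34, SE 0.20, edgeR adjusted p = 0.000545). Adamts3, the protease that activates Vegfc, rose by 0.77 (SE 0.18, edgeR adjusted p = 0.0129) and 1.59 (SE 0.18, edgeR adjusted p = 0.000139). The matrix protein Emilin2 rose by 1.59 and 1.56. The basement membrane proteoglycan Hspg2, with the most counts of the list, had values of -0.24 and 0.04 and was not called. The median log2 fold change was 0.25 in WT and 0.35 in Adm+/- mice.

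Most class 3 semaphorins share the neuropilins with the VEGF ligands, and they signal through plexin receptors. Of 12 class 3 semaphorin and plexin genes, 2 rose and 5 fell in WT mice (median log2 fold change -0.50). In Adm+/- mice 3 rose and 3 fell (median -0.39). The called shares were 58.3% and 50.0%, against 17.6% and 25.0% of all tested genes. Plxnd1, the endothelial plexin, with the most counts of the list, had -0.57 in WT mice, which was called (edgeR adjusted p = 0.0337), and -0.07 in Adm+/- mice, which was not (edgeR adjusted p = 0.771). The difference between these responses, 0.49 (SE 0.24), was not called (edgeR adjusted p = 0.665). Plxna2 rose by 0.83 and 1.23 and Sema3d by 0.90 and 0.74 in WT and Adm+/- mice. Plxna4 (-0.92) and Sema3g (-0.82) were the largest falls in WT mice, and Plxna3 (-1.11) and Plxna1 (-1.05) in Adm+/- mice.

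Of 38 mediators of VEGF receptor signalling, 5 rose and 1 fell in WT mice and 7 rose and 1 fell in Adm+/- mice, with medians of -0.037 and 0.032. The called shares, 15.8% and 21.1%, were under the 17.6% and 25.0% of all tested genes. The small heat shock protein Hspb1 (1.82) and the kinase Prkcb (1.25) rose the most in WT mice, and the phosphatase Ptprj (1.22), which acts on Kdr, and Pik3cd (1.07), a leukocyte form of PI3-kinase, in Adm+/- mice. The adaptor Nck2 fell in both, by 0.73 and 0.64 on the log2 scale. The kinase Akt1, with the most counts, had values of -0.31 and -0.27 that did not pass.

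Of 21 genes known to be induced in endothelium by VEGF, 4 rose and 4 fell in WT mice, and 7 rose and 2 fell in Adm+/- mice, with median log2 fold changes of -0.067 and 0.23. The called shares were 38.1% and 42.9%, against 17.6% and 25.0% of all tested genes. The genes that rose were led by Sele (E-selectin), from 0.248 to 2.60 CPM in WT mice (log2 fold change 3.35, edgeR adjusted p = 0.00850) and from 0.315 to 15.2 CPM in Adm+/- mice (5.58, edgeR adjusted p = 0.000202). F3 (tissue factor) rose by 1.23 in WT mice, and Icam1, with the most counts of the list, by 0.92 in WT and 2.20 in Adm+/- mice. Sele, F3 and Icam1 are adhesion and clotting genes that inflammatory cytokines induce as well. The genes that fell in both genotypes were Unc5b (-1.34 and -0.87), a guidance receptor of tip cells, and Angpt2 (-0.62 and -0.89), a Tie2 ligand.

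Hypoxia is a known inducer of Vegfa and Flt1, and 21 genes of oxygen sensing and the hypoxia response were read beside them. In WT mice 6 rose and none fell (median log2 fold change 0.27), and in Adm+/- mice 7 rose and 1 fell (median 0.34). The called shares were 28.6% and 38.1%, against 17.6% and 25.0% of all tested genes. Hif3a, a hypoxia-inducible factor subunit, rose by 2.14 and 3.59, Ndrg1 by 1.502 in WT mice and the glycolytic regulator Pfkfb3 by 2.07 in Adm+/- mice. Car9, a standard hypoxia marker, had -0.16 in WT mice (edgeR adjusted p = 0.544) and fell by 0.82 on the log2 scale in Adm+/- mice (edgeR adjusted p = 0.00526). Epas1, with the most counts, which encodes the subunit HIF-2 alpha of endothelium, had 0.19 and 0.42, under the fold threshold.

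Markers of other cells moved with LPS exposure beside these genes, and their part in the results above was not tested. The counts of called markers stand against 17.6% of all tested genes in WT and 25.0% in Adm+/- mice. Of 11 neutrophil markers 10 rose in WT and 11 in Adm+/- mice, with the most counts in S100a9 at 24.5 and 645 CPM in WT PBS and LPS. Their sums ran from 44.1 to 73.6 CPM in the PBS libraries other than WT PBS replicate 4, which had 197 CPM. In LPS libraries these sums ran from 1687 to 3113 CPM. Of 12 monocyte and macrophage markers 10 rose in WT mice, and 9 rose and 1 fell in Adm+/- mice, with the most counts in Csf1r, with sums of 235 to 312 CPM in PBS and 448 to 801 CPM in LPS libraries. All 16 tested skeletal muscle markers rose in WT mice and 1 in Adm+/- mice (Acta1), with the most counts in Ttn, with sums of 2570 to 5763 CPM in WT LPS against 201 to 763 CPM in the other groups. All 9 tested squamous epithelium markers, with the most counts in Krt4, rose in WT mice, while in Adm+/- mice 8 of the 9 had positive values and none was called, with sums of 3439, 33.4 and 1744 CPM in WT LPS replicates 9, 10 and 11 against 48.0, 13.4 and 7.55 CPM in Adm+/- LPS replicates 1, 2 and 12 and 3.90 to 7.40 CPM in Adm+/- PBS, and 3.74 to 13.7 CPM in WT PBS. WT LPS replicate 9 had the most squamous and neutrophil counts, and the lowest Kdr and Vegfa of its group (247 and 437 CPM). Replicate 11 had higher squamous and neutrophil sums (1744 and 1971 CPM) than replicate 10 (33.4 and 1786 CPM). Replicate 11 also had the highest Kdr and Vegfa of the group (418 and 532 CPM), above replicate 10 (342 and 525 CPM). In Adm+/- LPS, squamous sums were 7.55 to 48.0 CPM, neutrophil sums 1687 to 2012 CPM and Kdr levels 259 to 282 CPM. A link between these sums and the 9 genes was not tested.

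Markers of the resident lung cells were read in the same way. Of 13 type II pneumocyte markers 1 rose in WT mice (Sftpd, 0.75), and 3 rose and 3 fell in Adm+/- mice (Sftpd 1.54, Sftpa1 0.71, Etv5 -1.28, Lgi3 -0.81 among them), so that 7.69% and 46.2% of the list were called, against 17.6% and 25.0% of all tested genes in WT and Adm+/- mice. Of 11 type I pneumocyte markers, with the most counts in Ager, 1 rose in WT mice (Pdpn, 0.68) and 2 in Adm+/- mice (Pdpn 0.72, Rtkn2 0.55), or 9.09% and 18.2% of the list. Of 11 pericyte and smooth muscle markers, with the most counts in Acta2, 1 fell in WT mice (Notch3, -0.72), or 9.09% of the list, and none was called in Adm+/- mice. Of 11 fibroblast markers, with the most counts in Col1a1, 2 rose (Lum 2.24, Dcn 1.71) and 2 fell (Wnt2 -1.58, Fgf10 -0.66) in WT mice, and 3 fell in Adm+/- mice (Wnt2 -1.55 and Fgf10 -1.54 the largest). The fibroblast medians were -0.41 and -0.57, and the sums in the LPS libraries (11134 to 15662 CPM in WT and 11921 to 13968 CPM in Adm+/- mice) lay below those in all PBS libraries of the same genotype (16048 to 44596 and 15460 to 28822 CPM). Of 9 cardiac muscle markers, with the most counts in Myh6, 1 rose in WT mice (Sln, 1.91).

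None of the 9 genes was called between genotypes. Within PBS the background was 0% of tested genes, 0 of the 9 genes were called by edgeR and none had an unadjusted p below 0.05, with log2 differences from -0.63 (Pgf, SE 0.29, edgeR adjusted p = 0.999) to 0.14 (Vegfc, SE 0.15, edgeR adjusted p = 0.999). The Pgf value was -0.32 without WT PBS replicate 4. Kdr had nearly the same mean in both genotypes, 581 CPM in WT PBS and 582 CPM in Adm+/- PBS. Genotype libraries were separate for none of the 9 in PBS (4.99% of tested genes).

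Within LPS the background was 2.05% of tested genes (0.327% higher and 1.72% lower in Adm+/- mice), and 0 of the 9 were called by edgeR, 2 having an unadjusted p below 0.05. These were Pgf, 0.65 higher in Adm+/- mice (SE 0.27, 95% confidence interval 0.05 to 1.25, edgeR adjusted p = 0.301), and Flt1, 0.25 higher (SE 0.08, 95% confidence interval 0.08 to 0.42, edgeR adjusted p = 0.131). Without WT LPS replicate 11 the Pgf value was 0.42. The libraries of the genotypes were separate in LPS for 5 of the 9 genes, Pgf, Flt1 and Flt4 (higher in Adm+/- mice) and Vegfb and Vegfc (lower), against 24.6% of tested genes. Of the lists, Sele was 2.52 higher in Adm+/- than in WT mice after LPS (SE 0.54, edgeR adjusted p = 0.0388) and Aplnr, the apelin receptor of general capillary cells, 0.92 higher (SE 0.15, edgeR adjusted p = 0.0109). All 16 skeletal muscle and all 9 squamous markers had negative values in this comparison, of which 15 and 5 were called.

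Whether the genotypes responded differently to LPS was tested for each gene, and edgeR called 0 of the 9, against a background of 0.145% of tested genes, and 2 of the 9 had an unadjusted p below 0.05. Pgf responded by 1.27 more in Adm+/- mice (SE 0.40, 95% confidence interval 0.40 to 2.14, edgeR adjusted p = 0.408) and Flt1 by 0.26 more (SE 0.11, 95% confidence interval 0.02 to 0.50, edgeR adjusted p = 0.571). Kdr differed by -0.32 (SE 0.22, 95% confidence interval -0.80 to 0.16, edgeR adjusted p = 0.857), Vegfc by -0.39 (SE 0.21, edgeR adjusted p = 0.736) and Flt4 by 0.40 (SE 0.20, edgeR adjusted p = 0.683). The Kdr difference was -0.50 without WT LPS replicate 9 and -0.13 without replicate 11, and that of Flt4 was 0.27 without WT PBS replicate 5. The remaining differences were between -0.079 and 0.22, and the largest of them, Vegfa, was 0.075 without WT PBS replicate 5, 0.14 without WT LPS replicate 9 and 0.14 without both libraries that stood apart. The confidence intervals allow differences of more than 0.5 for Pgf, Flt1, Kdr, Vegfc, Vegfa and Flt4, so that at 3 libraries per group equal responses are not shown.

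For each called gene, the 3 tested genes with the most similar pattern were found by the root mean square (RMS) difference of log2 CPM, each gene centred on its mean over the 12 libraries. Kdr, whose own RMS deviation was 0.52, was nearest to Eml1 (RMS difference 0.068), Dna2 (0.083) and Tiam2 (0.085). Pgf (own deviation 0.91) was nearest to Ptpn1 (0.19), Sphk1 (0.19) and Il4ra (0.20). Vegfb (0.33) was nearest to Dis3l (0.082), Smco4 (0.090) and Nasp (0.098), and Vegfa (0.24) to Acd (0.051), Unk (0.054) and Rps6kc1 (0.055). These are descriptions over libraries that share the treatment groups.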

How the data were processed

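Reads of a directional, ribosome-depleted kit (3 libraries per group) were aligned by the authors with HISAT2 to mm10 and counted on Gencode genes with featureCounts; the submitters' notes also name Trim Galore. The deposited values are raw counts per gene. The strand setting and Gencode release are not given in the sources used here. Of 21950 protein-coding genes, the 15885 (72.4%) that passed filterByExpr were TMM-normalized and tested in 1 fit of all 12 libraries by the quasi-likelihood F-test of edgeR 4.0.16 (R 4.3.3), with thresholds of 0.05 for the adjusted p and 0.5 for the absolute log2 fold change; limma 3.58.1 and DESeq2 1.42.0 were alternatives. Promoters are from RefSeq; 99.7% of genes were found in Gencode M21, used for positions and lengths. Log2 CPM used a prior count of 2. In counts simulated on WT LPS against PBS (15885 genes), 20.9%, 64.2% and 100% of 1.5-, 2- and 4-fold changes were recovered. No pair of libraries of a group agreed within sampling noise. Counting precision covers counting error only. The 9 genes, the gene lists and the tests were chosen with earlier results of these data known. Named list genes are the member with the highest mean CPM and up to 2 largest called rises and falls.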

Additional observations from a re-analysis of the deposited data

Results flagged for a closer look

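The change of the Vegfc to Vegfa ratio after LPS exposure differed between the genotypes in a test of the difference itself, by -0.61 on the log2 scale (Adm+/- minus WT mice, exact permutation p = 0.005, the smallest the 400 assignments allow, adjusted p = 0.01). On that scale the WT mean went from -5.13 in PBS to -4.30 in LPS and the Adm+/- mean from -4.87 to -4.66, and the 3 libraries of each group did not overlap those of any other group. Neither gene's own difference in LPS response passed in edgeR (Vegfc -0.39, adjusted p = 0.736, and Vegfa 0.22, adjusted p = 0.933).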

How the results depend on the processing

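No paired analysis was possible because the groups share no replicate numbers. In Adm+/- mice Vegfb, Pgf and Kdr were called in all 12 fits that left out 1 library and under each other setting, except that a test against a log2 fold change of 0.5 (glmTreat) called 2 of the 3. In WT mice the count of 4 was 0 under glmTreat, 0 in a fit of only the 6 WT libraries and 1 without both libraries that stood apart, and it ranged from 1 (without WT PBS replicate 5) to 4 over single libraries left out, with 2 without WT LPS replicate 9; limma-voom called 3 and DESeq2 4. The genotype comparisons and the difference in LPS response gave 0 of 9 under every setting run. Over all tested genes the WT count of 2791 was 1001 under glmTreat and 1142 with 6 libraries, the Adm+/- count of 3968 was 1695 under glmTreat, the LPS genotype count of 325 was 133 under glmTreat, 565 without both libraries and 803 by DESeq2, and the count of 23 differences was 13 under glmTreat, 168 by DESeq2 and 1 by limma-voom. Leaving out 1 library, these counts ran from 1435 (without WT LPS replicate 9) to 3034 in WT mice, from 87 (without Adm+/- LPS replicate 1) to 552 between genotypes in LPS and from 5 to 61 for the difference. The difference in the Flt1 to Kdr ratio was 0.61 and passed without both libraries that stood apart (single libraries 0.39 to 0.75). The Nrp2 to Nrp1 ratio turned without both libraries, to 0.044 for the LPS effect (single libraries -0.17, which passed without WT PBS replicate 4, to 0.020) and -0.11 for the difference (-0.16 to 0.23). With the median of the endothelial list, the LPS differences were 0.24 and 0.49 for Flt1 in WT and Adm+/- mice, -0.52 and -0.83 for Kdr, -0.064 and 0.32 for Flt4, 0.11 and 0.090 for Nrp1, and 0.032 and 0.032 for Nrp2, where the mean of the list gave -0.22 for Flt4 in WT mice. Values near 0 changed sign. Leaving out both libraries turned Vegfc in Adm+/- mice to 0.040, Nrp2 between genotypes in PBS to 0.025, and the differences of Nrp1 and Nrp2 to 0.064 and -0.037. With all annotated genes, Kdr between genotypes in PBS was -0.021 and the Nrp1 difference 0.0040. Leaving out single libraries gave -0.15 to 0.046 for Vegfc and -0.10 to 0.13 for Flt4 in Adm+/- mice, and, between genotypes in PBS, -0.22 to 0.033 for Vegfa, -0.057 to 0.027 for Flt1, -0.038 to 0.071 for Kdr, -0.16 to 0.025 for Nrp1 and -0.14 to 0.049 for Nrp2. In LPS Nrp2 ran from -0.064 to 0.038, and the differences from -0.15 to 0.00063 for Vegfb, -0.095 to 0.10 for Nrp1 and -0.049 to 0.13 for Nrp2. The cause of these changes was not tested.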
